A study of Mus musculus with 16 samples.

Results

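H1foo, H1f0, H3f3a, H3f3b, H2afz, H2afx, Hira, Npm2, Npm3 and Nap1l1 were followed through the growth of the mouse oocyte. They are 10 genes, picked by name, of 25965 in the expression table, and they encode linker histones, histone variants and the chaperones that handle histones. Oocytes came from wild-type C57BL/6 mice (C57BL/6Babr in the study's methods) and were pooled by diameter, so that each library averages many cells. RNA-seq was made in duplicate (A and B) for 4 diameter classes, namely 10–30 µm (postnatal days 5–7), 40–45 µm (days 7–12), 50–55 µm (days 9–14) and 60–65 µm (days 13–16), and 1 further column of values was from germinal vesicle (GV) oocytes at day 20. DNA methylation was measured by reduced representation bisulphite sequencing (RRBS, which samples CpG-rich sequence) in duplicate for the 3 larger classes and by post-bisulphite adapter tagging (PBAT, which samples the whole genome) in 1 library at 60–65 µm. Because larger oocytes came from older mice, diameter and age cannot be told apart.

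DNA in the nucleus is wrapped around octamers of core histones, and a linker histone of the H1 family binds where DNA enters and leaves each particle. Variant histones such as H3.3, H2A.Z and H2A.X can be placed outside of DNA replication, which matters in the oocyte because it grows for weeks without replicating its DNA. Chaperones carry histones to and from chromatin, and the fully grown oocyte holds a store of linker histone and of nucleoplasmin that acts on the sperm chromatin after fertilisation.

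RNA levels are given as RPKM, reads scaled to exon length and library total, so that levels of different genes can be set side by side. Total reads recovered from the table ranged from 99369453 to 198298120 per column, and the genes had between 299 reads (Npm3 in 1 library of 60–65 µm) and 98145 reads (H1foo, GV) behind a value. All 11 oocyte markers examined were present, with a summed level of 2723 to 3883 RPKM. Granulosa markers summed to 1.41–1.64 RPKM in 10–30 µm and 8.15–9.43 in 60–65 µm libraries (5 of 10 reached 0.5 RPKM anywhere, Esr2 being the highest). Stroma and theca markers summed to 2.83–4.0 and 0.888–1.09 RPKM (3 of 7, all collagens) and endothelial markers to 0.544–0.582 and 4.23–4.74 RPKM (1 of 3, Pecam1), while none of 5 blood markers reached 0.5 RPKM. No marker was at 0 in every column, Foxl2 peaked at 0.0642 and Cdh5 at 0.0101 RPKM, and the part of these markers in the changes of the 10 genes was not tested. In pooled oocytes, fewer cells of a type and less RNA per cell cannot be told apart.

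The promoters of 4 of the genes differed in CpG content. The 250 bases before the RefSeq start (GRCm38.p6) are printed with each CpG in capitals. They lie at chr6:115944681-115944930 (plus strand, H1foo), chr15:79027962-79028211 (plus strand, H1f0), chr16:18876500-18876749 (plus strand, Hira) and chr19:45749566-45749815 (minus strand, Npm3, where the last 26 bases fall inside the gene as the table lists it).
H1foo: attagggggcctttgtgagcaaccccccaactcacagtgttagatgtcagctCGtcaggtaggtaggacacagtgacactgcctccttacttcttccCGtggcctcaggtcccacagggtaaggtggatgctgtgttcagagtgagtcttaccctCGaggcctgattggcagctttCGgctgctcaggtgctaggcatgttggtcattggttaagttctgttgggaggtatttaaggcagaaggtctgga
H1f0: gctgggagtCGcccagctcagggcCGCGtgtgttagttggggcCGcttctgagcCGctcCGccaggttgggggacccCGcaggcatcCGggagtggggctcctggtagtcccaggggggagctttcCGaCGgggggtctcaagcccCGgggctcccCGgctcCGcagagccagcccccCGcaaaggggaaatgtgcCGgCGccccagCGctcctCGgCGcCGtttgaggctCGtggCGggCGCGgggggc
Hira: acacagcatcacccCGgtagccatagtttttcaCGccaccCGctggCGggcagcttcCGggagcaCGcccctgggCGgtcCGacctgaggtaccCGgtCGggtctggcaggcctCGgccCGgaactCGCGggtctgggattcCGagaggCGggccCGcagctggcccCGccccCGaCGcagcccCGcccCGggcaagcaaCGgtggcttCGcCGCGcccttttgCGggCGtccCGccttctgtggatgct
Npm3: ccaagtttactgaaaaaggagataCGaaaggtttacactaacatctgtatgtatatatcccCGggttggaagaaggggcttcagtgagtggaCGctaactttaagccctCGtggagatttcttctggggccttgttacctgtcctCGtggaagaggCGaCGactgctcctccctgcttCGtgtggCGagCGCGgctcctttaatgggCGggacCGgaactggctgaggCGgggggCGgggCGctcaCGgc
The H1foo window held 4 CpGs, the H1f0 window 24, the Hira window 29 and the Npm3 window 17, against a median of 6 over the same window of 27025 RefSeq promoters. Entries were found for 8 of the 10 genes, and the windows of H3f3a (35 CpGs), H2afz (28), Nap1l1 (24) and H3f3b (19) were also above that median. No entry was found for H2afx and Npm2. H1foo was the only gene of the 8 below the median. Short motifs were searched on both strands. The H1foo window held 2 CCAAT boxes (letters CCAAT, present in 34.5% of promoters) and 1 E-box (CANNTG, 66.0%), with no TATAAA (13%) and no GGGCGG (32.9%). The H1f0 window held none of these 4 motifs, the Hira window 1 E-box and 3 GGGCGG, and the Npm3 window 1 E-box and 2 GGGCGG.

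Across the whole of growth, from 10–30 to 60–65 µm, 3 of the 10 genes rose (H1foo, H1f0 and Hira) and 4 fell (Npm3, H2afz, Nap1l1 and H3f3a) at an adjusted p under 0.05 with limma. Of all 10518 genes tested, 32.2% rose and 31.3% fell in the same comparison, so that change as such did not set these genes apart. Their median log2 change was -0.12, against 0.01 for all tested genes. From 10–30 to 40–45 µm, 2 rose (H1foo and H1f0, against 12.8% of all genes) and 1 fell (Npm3, 10.4%), and from 40–45 to 50–55 µm none rose (5.89%) and 1 fell (Npm3, 3.21%). From 50–55 to 60–65 µm limma called 0 of the 10 and 0 of all genes (0.00% in either direction), although 1447 genes, none of the 10 among them, had an unadjusted p under 0.05 and edgeR on recovered reads also called 0. Of the genes called in the first step, 55.3% were higher with scaled values and 41.7% with the RPKM as deposited.

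**Figure D1:**
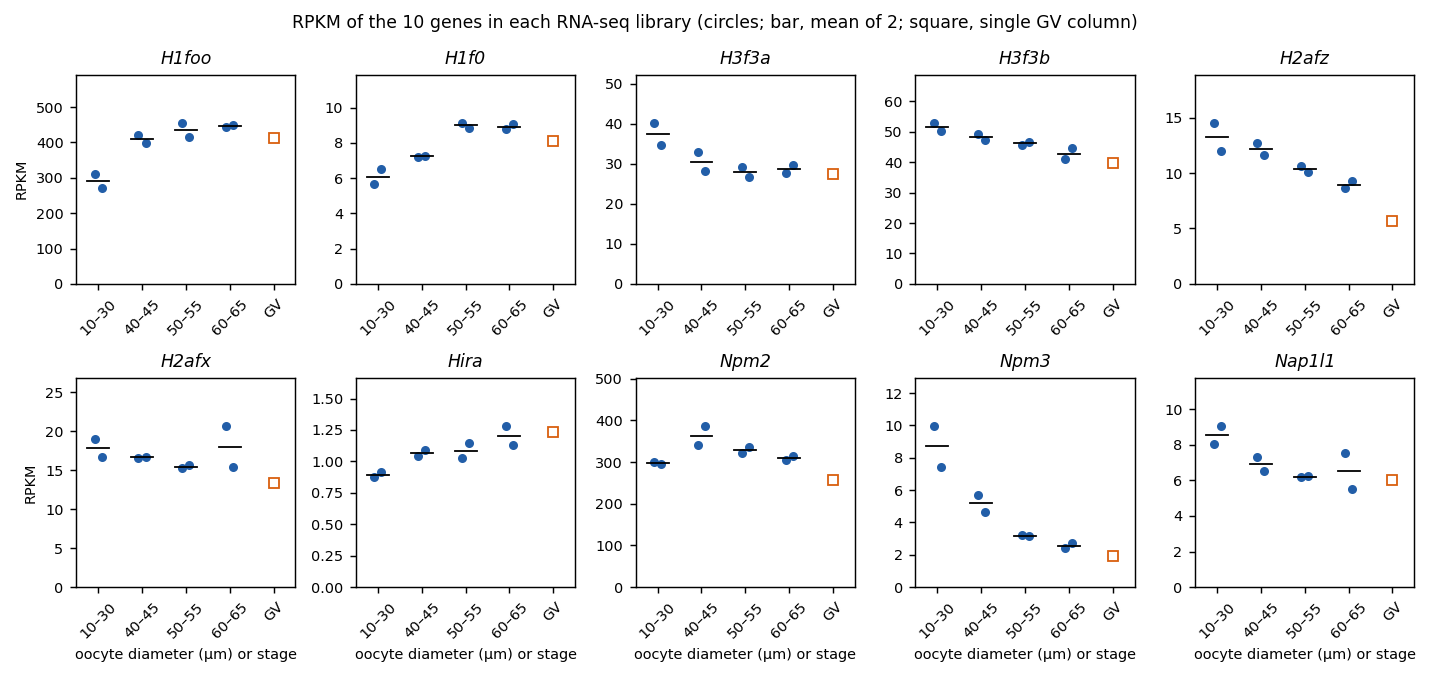
RPKM of each gene (vertical axis, from 0, with its own scale) in every RNA-seq library by oocyte diameter (horizontal axis). Circles are libraries, bars the mean of the duplicates and squares the single GV column, with H1foo and H1f0 climbing early, Npm3 and H2afz descending, and Npm2 and H2afx near their first level at 60–65 µm and lowest in the GV column.

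The linker histones were led by H1foo, the oocyte form, which replaces somatic H1 in growing oocytes and is carried into the zygote. The gene lies at chr6:115944938-115950236 on the plus strand. H1foo stood at 311 and 270 RPKM in 10–30 µm oocytes, 421 and 399 at 40–45 µm, 455 and 416 at 50–55 µm, 444 and 449 at 60–65 µm, and 412 in GV oocytes. Both 10–30 µm libraries were below all others. The 50–55 µm class overlapped those on either side, and both 60–65 µm libraries lay above both 40–45 µm libraries. The whole change was 0.63 on the log2 scale (SE 0.13, 1.55-fold, limma adjusted p = 0.00308), and it was called when any 1 library was left out (log2 0.49 to 0.78). Most of it came in the first step, at log2 0.56 (SE 0.13, limma adjusted p = 0.0191), a call that was lost without 10–30 B (log2 0.41, adjusted p = 0.0559) or without 40–45 A (log2 0.49, adjusted p = 0.10), with no filter on low values (adjusted p = 0.129) and with only the 2 classes fitted (adjusted p = 0.0910). By mean level H1foo went from rank 21 to rank 9 of all genes in the table.

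H1f0, a replacement linker histone of cells that have stopped dividing, was far less abundant. H1f0 lies at chr15:79028212-79030498 on the plus strand. It measured 5.65 and 6.53 RPKM at 10–30 µm, 7.22 and 7.24 at 40–45 µm, 9.14 and 8.87 at 50–55 µm, 8.76 and 9.05 at 60–65 µm, and 8.11 in GV oocytes. The classes did not overlap up to 50–55 µm and did thereafter. H1f0 rose 1.47-fold over growth (log2 0.56, SE 0.09, limma adjusted p = 0.000919), with log2 values of 0.49 to 0.61 when each library was left out. Its first step was log2 0.31 (SE 0.09, limma adjusted p = 0.0434), but that call was lost in 7 of the 8 fits without 1 library (adjusted p up to 0.172, kept without 10–30 B), with the RPKM as deposited (log2 0.25, adjusted p = 0.0965) and with only the 2 classes fitted (adjusted p = 0.180). H1foo exceeded H1f0 by 41.4- to 58.3-fold in every column.

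No other linker histone was called higher. Of 9 further linker histone genes in the table, 5 were tested over growth and 3 fell, with a median log2 change of -0.70. Hist1h1c fell from 15.7 ± 1.51 to 5.13 ± 0.96 RPKM (SD, n = 2; log2 -1.59, SE 0.13, limma adjusted p = 2.411e-05), Hist1h1d from 4.02 to 1.62 RPKM (log2 -1.26) and Hist1h1e from 3.90 to 2.36 RPKM (log2 -0.70). Hist1h1a, a replication-dependent subtype, was listed at a high level, 174 ± 37.5 RPKM at 10–30 µm and 165 ± 11.2 at 60–65 µm (SD, n = 2), with no call (log2 -0.05, limma adjusted p = 0.825). H1fx had 1.29 ± 0.798 and 2.31 ± 0.0442 RPKM, classes that did not overlap, and its log2 change of 0.94 (SE 0.37), greater than that of H1foo, missed the threshold (limma adjusted p = 0.0508). Hist1h1b, Hist1h1t and Hils1 stayed at or below 0.710, 0.0554 and 0.0163 RPKM, and H1fnt was listed at 0. Of the summed RPKM of these linker histone genes without H1fnt and Hils1, and with H1f0, H1foo made up 57.5% and 59.9% at 10–30 µm, 71.6% and 69.8% at 60–65 µm and 75% in GV oocytes. Hist1h1a went from 37.1% and 32.7% at 10–30 µm to 25.3% and 26.8% at 60–65 µm.

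Histone H3.3 is encoded by H3f3a and H3f3b, whose transcripts give the same protein. Their longest alignable stretch, 412 bases, was 76.9% identical. H3f3a (chr1:180800832-180813943, minus strand) measured 40.3 and 34.6 RPKM at 10–30 µm, 32.9 and 28.2 at 40–45 µm, 29.3 and 26.7 at 50–55 µm, 27.8 and 29.8 at 60–65 µm, and 27.4 in GV oocytes. The 10–30 µm libraries were the highest. The fall was log2 -0.36 (SE 0.14, limma adjusted p = 0.0478), and it lost the call in 5 of 8 fits without 1 library, with adjusted p of 0.232 without 10–30 A, 0.216 without 60–65 A, 0.0949 without 60–65 B, 0.0639 without 50–55 A and 0.0637 without 50–55 B, and also with no filter on low values (0.0755) and with only the 2 classes fitted (0.0555). Stretches of at least 200 bases with 95% identity were found in 20 other annotated genes for H3f3a and since the alignment kept 1 place per read, reads that fit several copies may have gone to any of them.

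H3f3b (chr11:116021912-116027962, minus strand) was the more abundant of the pair in every column, by 1.32- to 1.75-fold. It measured 53.0 and 50.3 RPKM at 10–30 µm, 49.3 and 47.3 at 40–45 µm, 45.6 and 46.8 at 50–55 µm, 41.1 and 44.6 at 60–65 µm, and 39.7 in GV oocytes. No class overlapped the next. The change over growth was log2 -0.26, with a 95% interval of -0.50 to -0.02, and its limma adjusted p of 0.0559 missed the threshold. It passed with the RPKM as deposited (log2 -0.27, adjusted p = 0.0261), without 10–30 B (log2 -0.34, adjusted p = 0.0290) and in the edgeR test on recovered reads (log2 -0.27, adjusted p = 0.0445).

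H2afz encodes H2A.Z, a variant found at the nucleosomes that flank active promoters. It lies at chr3:137864487-137866922 on the plus strand. H2afz measured 14.5 and 12 RPKM at 10–30 µm, 12.7 and 11.6 at 40–45 µm, 10.6 and 10.1 at 50–55 µm, 8.64 and 9.24 at 60–65 µm, and 5.66 in GV oocytes. The first 2 classes overlapped, and each later class lay below the one before. It fell by 0.54 on the log2 scale (log2 change -0.54, SE 0.13, limma adjusted p = 0.00741), though without 60–65 A the adjusted p was 0.0592 (log2 -0.49). None of the single steps was called. The GV column stood at 0.633 of the 60–65 µm mean, with 2.27% of 9946 tested genes at a lower ratio, and with 1 GV column it has no replicate check. Nearly identical stretches lie in 6 other genes.

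H2afx encodes H2A.X, the variant that is phosphorylated at DNA breaks. H2afx lies at chr9:44334715-44336071 on the plus strand. It measured 19.0 and 16.7 RPKM at 10–30 µm, 16.6 and 16.7 at 40–45 µm, 15.3 and 15.7 at 50–55 µm, 20.7 and 15.4 at 60–65 µm, and 13.3 in GV oocytes. The 60–65 µm duplicates spanned almost the full range of the growing oocytes. Its change over growth was log2 0.01 with a 95% interval of -0.32 to 0.35 (limma adjusted p = 0.945), which as a fold runs from 0.799 to 1.27.

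Further core histone variants moved in both directions. Of 10 others in the table, 7 were tested over growth, 4 rose and 2 fell, with a median log2 change of 0.26. The rises were led by a pair known as testis- and oocyte-enriched variants. Hist1h2aa went from 62.3 ± 19.1 to 129.8 ± 6.26 RPKM (SD, n = 2; log2 1.10, SE 0.23, limma adjusted p = 0.00289) and Hist1h2ba from 29.6 ± 8.90 to 56.0 ± 3.56 RPKM (log2 0.96, SE 0.23, limma adjusted p = 0.00646). The falls were H2afy, which encodes macroH2A1, from 2.43 ± 0.0579 to 0.703 ± 0.0583 RPKM (log2 -1.64, SE 0.12, limma adjusted p = 1.371e-05), and Hist3h2a (log2 -1.02).

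Hira, the subunit that gives its name to the complex that deposits H3.3 outside of replication, was the least abundant of the 10. Hira lies at chr16:18877037-18970309 on the plus strand. It measured 0.877 and 0.914 RPKM at 10–30 µm, 1.04 and 1.09 at 40–45 µm, 1.02 and 1.15 at 50–55 µm, 1.28 and 1.13 at 60–65 µm, and 1.23 in GV oocytes. Both 10–30 µm libraries were below all others. The rise was log2 0.40 (SE 0.11, 1.32-fold, limma adjusted p = 0.0124), and without 60–65 A the adjusted p was 0.0921 (log2 0.32). At its highest, Hira had 1288 reads behind a value.

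Of 16 other H3 and H4 chaperone genes, all were tested, 7 rose and 2 fell over growth. Ubn1, the partner of HIRA in its complex, rose from 5.09 ± 1.01 to 9.14 ± 0.717 RPKM (SD, n = 2; log2 0.85, SE 0.12, limma adjusted p = 0.000418). Daxx, the chaperone of the other H3.3 pathway, rose from 3.08 ± 0.472 to 5.78 ± 0.286 RPKM (log2 0.90, SE 0.11, limma adjusted p = 0.000141). Chaf1a, the large subunit of the replication-coupled CAF-1, rose from 21.3 to 35.9 RPKM (log2 0.77), whereas Rbbp4, a histone-binding subunit shared by several complexes, fell from 5.80 to 3.61 RPKM (log2 -0.66). The median log2 change of the 16 was 0.15.

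The nucleoplasmin genes went separate ways. Npm2 encodes the oocyte nucleoplasmin that acts on sperm chromatin. The gene is listed at chr14:70647302-70653084 on the minus strand. Npm2 measured 301 and 296 RPKM at 10–30 µm, 341 and 386 at 40–45 µm, 322 and 337 at 50–55 µm, 304 and 315 at 60–65 µm, and 257 in GV oocytes. The 40–45 µm libraries were the highest and the GV column the lowest. The step into 40–45 µm was log2 0.34 (SE 0.11, limma adjusted p = 0.0516), which missed the threshold narrowly and passed it in the limma fits with a pseudocount of 0.01 (adjusted p = 0.0490) or a robust prior (adjusted p = 0.0484) and in the edgeR test on recovered reads (adjusted p = 0.0311). Over the whole of growth the log2 change was 0.07, with a 95% interval of -0.18 to 0.31 (limma adjusted p = 0.614), and Npm2 ranked between 16 and 22 of all genes in every class.

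Npm3, a nucleoplasmin family member of somatic cells that is found in the nucleolus, showed the steepest change of the 10. The gene lies at chr19:45747734-45749591 on the minus strand. Npm3 measured 9.96 and 7.43 RPKM at 10–30 µm, 5.70 and 4.67 at 40–45 µm, 3.22 and 3.14 at 50–55 µm, 2.40 and 2.75 at 60–65 µm, and 1.94 in GV oocytes. No class overlapped the one before it. It fell over growth to 0.309 of its first level (log2 -1.70, SE 0.18, limma adjusted p = 8.49e-05), with log2 -1.95 to -1.45 when each library was left out. The first step (log2 -0.67, SE 0.18, limma adjusted p = 0.0305) and the second (log2 -0.70, SE 0.18, limma adjusted p = 0.0470) were called, but the calls were lost in 5 and 6 of the 8 fits without 1 library. For the first step the adjusted p was 0.139 without 10–30 A, 0.0512 without 40–45 A, 0.144 without 40–45 B, 0.0516 without 60–65 A and 0.0513 without 60–65 B. For the second it was 0.170 without 40–45 A, 0.110 without 40–45 B, 0.222 without 50–55 A, 0.164 without 50–55 B, and 0.0834 and 0.0833 without 60–65 A and B. The first-step call was also lost with no filter on low values (limma adjusted p = 0.0623) and with only the 2 classes fitted (0.0738), and the second with a pseudocount of 1 (0.0544), no filter (0.0981) and at least 2 RPKM (0.0535). The ratio of Npm2 to Npm3 in RPKM went from 30.2 and 39.8 at 10–30 µm to 127 and 115 at 60–65 µm and 132 in GV oocytes.

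Npm3 was the only one of the 10 genes whose class means spanned at least 1 on the log2 scale, and its pattern over the 8 libraries was most like those of Dppa3 (Pearson r = 0.9985, mean 533 RPKM at 10–30 µm and 231 at 60–65 µm) and Selk (r = 0.9981, 15.6 and 10.7 RPKM). These are the highest of many correlations over libraries that share oocyte size and depth, and they are given as a description.

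Nap1l1 encodes a chaperone that carries H2A and H2B. Nap1l1 lies at chr10:111473192-111498142 on the plus strand. It measured 8.06 and 9.05 RPKM at 10–30 µm, 7.32 and 6.54 at 40–45 µm, 6.17 and 6.22 at 50–55 µm, 7.52 and 5.51 at 60–65 µm, and 6.02 in GV oocytes. The 60–65 µm duplicates stood on either side of the 2 classes before. The fall over growth was log2 -0.39 (SE 0.15, limma adjusted p = 0.0429) and depended on single libraries and settings, with an adjusted p of 0.310 and log2 -0.18 without 60–65 B, 0.119 without 10–30 B, 0.0717 without 10–30 A, 0.0626 without either 50–55 µm library, 0.0658 with no filter on low values and 0.0642 with only the 2 classes fitted.

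Of the other H2A and H2B chaperone and exchange genes, 20 rows were tested over growth, 6 rose and 7 fell (median log2 -0.13). Set, a chaperone of the same family as Nap1l1, fell from 10.3 ± 0.794 to 3.39 ± 0.294 RPKM (SD, n = 2; log2 -1.56, SE 0.12, limma adjusted p = 1.707e-05). Nap1l3, a relative of Nap1l1, rose from 0.496 to 1.26 RPKM (log2 1.21), and Ino80, the ATPase of an H2A.Z exchange complex, from 1.48 to 3.34 RPKM (log2 1.14). Znhit1, a subunit of the complex that inserts H2A.Z, fell from 2.36 to 1.32 RPKM (log2 -0.77). Over the 48 rows of the 4 lists, 17 rose and 14 fell, with a median log2 change of -0.02.

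**Figure D2:**
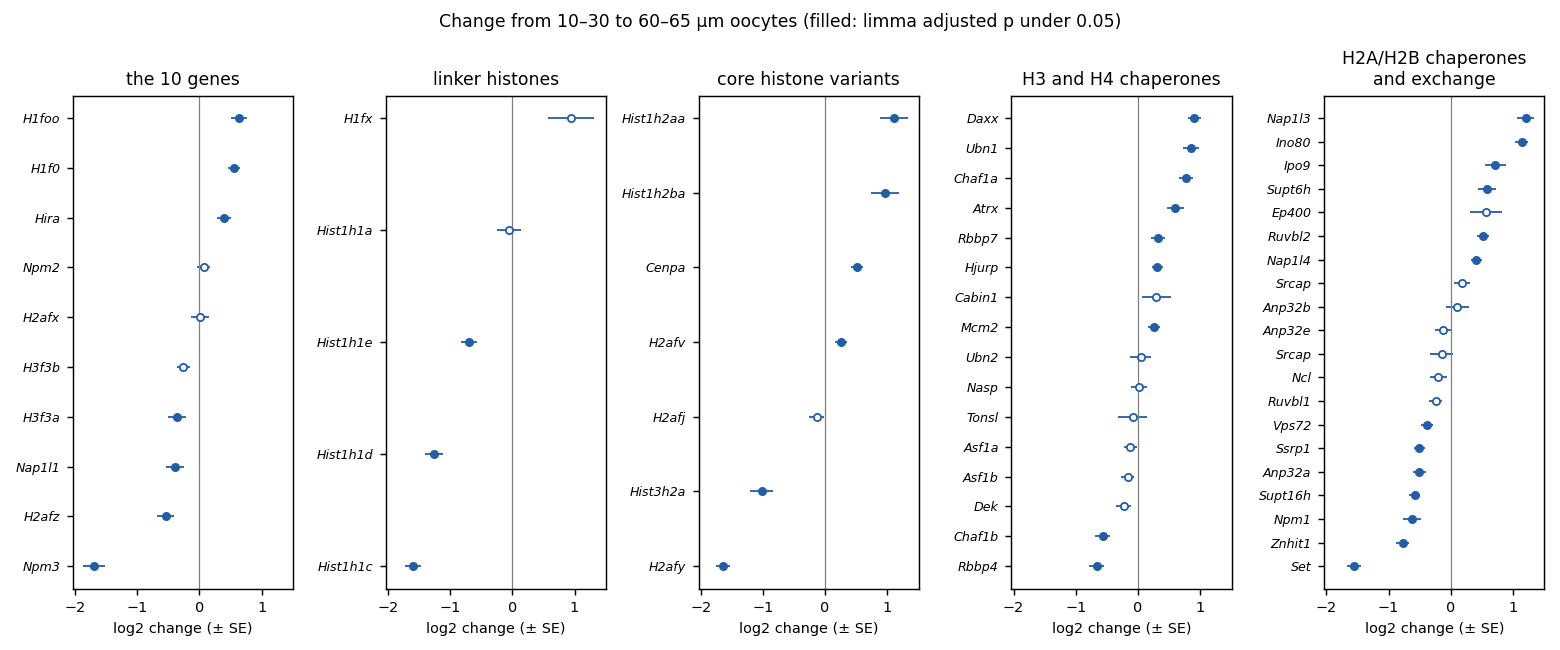
Log2 change from 10–30 to 60–65 µm oocytes (horizontal axis) with its standard error for the 10 genes and for the tested genes of each list (one row each). Filled points had a limma adjusted p under 0.05, with 7 of the 10 genes filled and Npm3 farthest from 0 among them.

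Set side by side at 60–65 µm, the levels ran from H1foo (447 ± 3.54 RPKM, SD, n = 2) and Npm2 (310 ± 7.28) through H3f3b (42.8 ± 2.46), H3f3a (28.8 ± 1.41) and H2afx (18.0 ± 3.74) to H2afz (8.94 ± 0.427), H1f0 (8.91 ± 0.207), Nap1l1 (6.51 ± 1.42), Npm3 (2.57 ± 0.249) and Hira (1.20 ± 0.108). H2afz and H1f0 did not differ beyond their spread, and all other neighbours in this order did not overlap between their libraries. The GV column lay below the 60–65 µm mean for 9 of the 10 genes, with Hira (1.02 times that mean) the exception, and the median ratio over 9946 tested genes was 0.980.

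DNA methylation at the gene starts was low throughout. A start was taken as 1 kb on either side of the start in the expression table, and its level as the mean over CpG cytosines with at least 5 PBAT reads. In 60–65 µm oocytes 9 of the 10 starts could be measured and none reached 25%, against 6.00% of all 19669 starts measured. H2afz had 1.75% (111 positions, 816 calls, 95% Wilson interval of the pooled calls 0.933–2.71%), H2afx 2.05% (1.63–3.52%), Hira 2.53% (1.58–3.07%), H1f0 2.87% (2.11–3.87%), Npm3 3.86% (1.94–5.80%), Nap1l1 4.22% (2.80–5.76%) and H3f3a 5.30% (4.09–7.19%). The median over all starts was 3.87%, so that these genes lay on both sides of it. Intervals cover counting error only, and there is 1 PBAT library.

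H1foo and Npm2, by far the most abundant transcripts of the 10, had CpG-poor starts, with 29 and 28 CpGs in 2 kb against a median of 54 over 25574 starts and 101 to 180 at the starts of H1f0, H3f3a, H2afz, H2afx, Hira, Npm3 and Nap1l1. Of the positions with any read, 7 of 46 (43 calls) at H1foo and 10 of 39 (60 calls) at Npm2 had 5 reads, against 157 of 263 at H1f0 and 178 of 309 at Hira. Their levels were 5.71% for H1foo (95% Wilson interval of pooled calls 1.28–15.5%) and 7.25% for Npm2 (2.62–15.9%). With all positions of at least 1 read, 10 of 141 calls were methylated at H1foo (7.09%, 3.90–12.6%) and 11 of 130 at Npm2 (8.46%, 4.79–14.5%). Among 3279 measured starts with no more than 29 CpGs, the median was 8.10% and 18.8% reached 25%. In the H1foo promoter window printed above, 0 of 17 calls were methylated.

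The start listed for H3f3b lies 3.46 kb upstream of the RefSeq start, in sequence with 16 CpGs in 2 kb, and no position there had 5 reads. With at least 1 read, 1 of 32 calls was methylated (3.12%, 95% Wilson interval 0.554–15.7%). At the RefSeq start, the mean was 4.79% over 70 positions. For Npm2, a second start in the GENCODE annotation lies 6.16 kb upstream of the listed one, where the mean was 1.63% over 42 positions.

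RRBS followed the starts through growth for the 7 genes that had at least 3 positions in all 6 libraries (H1f0, H3f3a, H2afz, H2afx, Hira, Npm3 and Nap1l1). All 42 values lay between 0 and 2.17%. Hira, for example, had 1.48% and 0.560% at 40–45 µm, 1.21% and 0.280% at 50–55 µm, and 0.842% and 0.833% at 60–65 µm, and H2afz had 0.534% and 0.160%, 0.475% and 0.259%, and 0.701% and 0.458%. No start gained 10 percentage points, which 2.05% of all 13832 starts measured did. H1foo, H3f3b and Npm2 had too few positions.

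**Figure D3:**
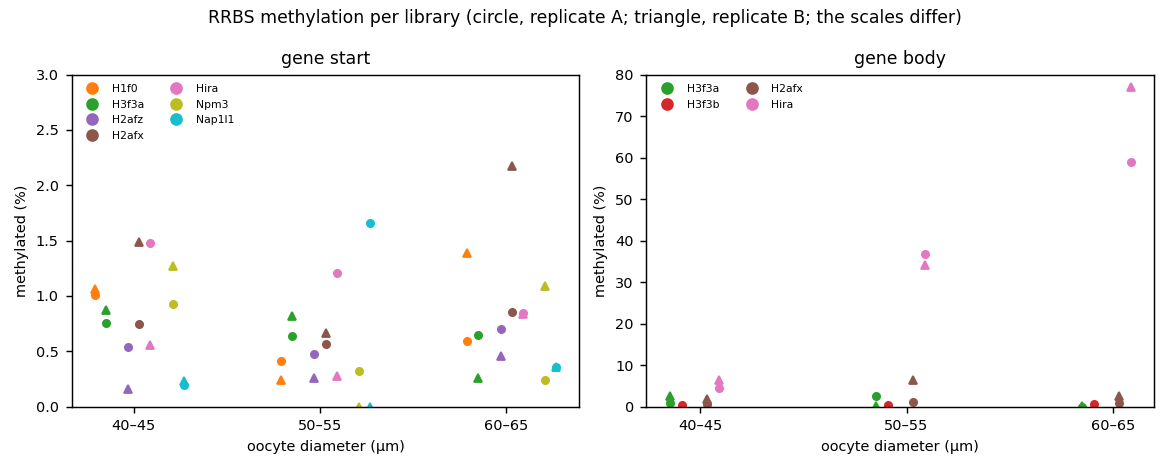
RRBS methylation (vertical axes, percent, on different scales) by oocyte diameter (horizontal axes) at gene starts (left) and in gene bodies (right). Each point is 1 library; starts reach at most 2.17%, and in the bodies the Hira values climb from 4.46% and 6.39% to 58.9% and 76.9% while H3f3a, H3f3b and H2afx reach at most 6.32%.

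In the gene bodies (from 1 kb after the start to the end) the 10 genes spread widely. Of 9 bodies measured by PBAT, 4 reached 25%, beside 48.7% of all 20121 bodies measured and 51.4% of those of genes of at least 4000 bp. Nap1l1 had 69.5% (44 positions, 477 calls, 95% Wilson interval of the pooled calls 64.9–73.2%), higher than 96.3% of all bodies. Hira had 52.5% (171 positions, 48.5–53.6%), Npm2 35.7% (18 positions, 27.8–44.9%) and H1foo 30.9% (37 positions, 24.4–35.7%). H3f3a was just below the 25% line at 24.9% (35 positions, 20.4–32.2%). Npm3 had 5.38% (1.72–13.7%), H3f3b 4.53% (3.46–7.50%), H2afz 1.67% (0.203–6.23%) and H2afx 1.54% (0.316–9.45%), while the body of H1f0 had 1 position of at least 5 reads and was not measured. The H3f3b value describes its promoter more than its body, since the RefSeq start lies inside the body as listed and the 2 kb around it hold 70 of the 74 positions. With all positions of at least 1 read, Npm2 had 23.1% (83 positions), H1foo 24.4% (93 positions) and H3f3a 30.0% (219 positions), so that the order of these 3 genes and their side of the 25% line depended on the read minimum.

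Body values were set beside those of genes of like length and level at 60–65 µm. Nap1l1 (24951 bp) lay above the upper quartile and H3f3a (13112 bp) below the lower quartile of 2713 genes of at least 10 kb with at least 5 RPKM (median 48.9%, quartiles 37.1% and 57.6%). Hira (93273 bp) lay near the median of 51.9% of 3490 such long genes with 1 to 5 RPKM. H1foo (5299 bp) and Npm2 (5783 bp) lay near the median of 30.6% of 254 genes between 4 and 6.5 kb with at least 5 RPKM. Among 59 genes of at least 4 kb with at least 100 RPKM (median 24.6%, quartiles 16.6% and 33.5%), H1foo lay between the quartiles and Npm2 above the upper one. The Npm2 interval takes in that upper quartile, and with all positions of at least 1 read its mean was 23.1%. H2afz, H2afx and Npm3, of 2436, 1357 and 1858 bp, were the shortest of the measured genes. H2afz and H2afx lay below the lower quartile of 227 genes under 4 kb with at least 5 RPKM (median 12.2%, quartiles 5.46% and 39.5%), and Npm3, at a lower RPKM, below the median of 8.10% of all genes under 4 kb. The H2afz and H2afx values rest on 12 and 5 positions, and both of their intervals reach past 5.46%. With all positions of at least 1 read their means were 6.03% and 6.86%, above that quartile, which was taken at 5 reads. Hira at 1.20 RPKM had more body methylation than H1foo at 447 RPKM.

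**Figure D4:**
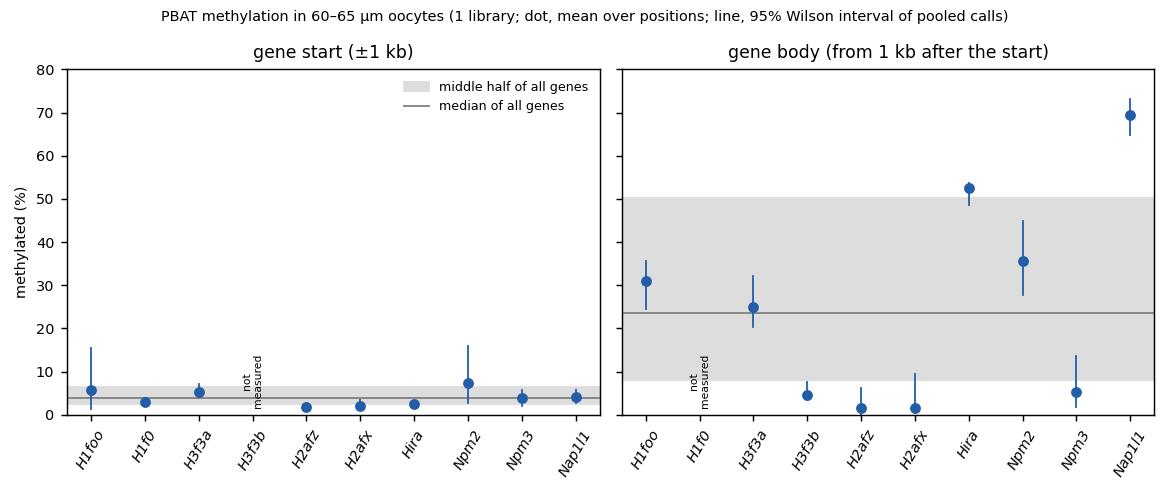
PBAT methylation (vertical axis, percent) of the start (left) and body (right) of each gene in 60–65 µm oocytes. Points are means over positions, lines the 95% Wilson interval of the pooled calls, and grey the median and interquartile range of all genes; starts of the 9 measured genes reach at most 7.25%, and bodies run from 1.54% (H2afx) to 69.5% (Nap1l1).

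In 1-kb bins counted from the start, Nap1l1 went from 3.36% in the first kb to 42.9% between 2 and 3 kb and 88.6% between 6 and 7 kb, and the 10 to 3 kb before its start had 7.53% (95% Wilson interval 4.82–11.6%). Within the gene, H1foo was highest at 46.6% between 3 and 4 kb (34 of 73 calls, 35.6–57.9%) and had 0 of 33 calls methylated between 6 and 7 kb, past its end. Npm2 had 2.76% in its first 2 kb (1.08–6.88%) and 30.7% from there to its end (25.1–37.0%). Npm3 and H3f3b were low inside the gene and had methylated stretches on both sides at some distance. The 10 to 3 kb upstream had 60.0% at Npm3 (55.4–64.5%) and 56.1% at H3f3b (51.3–60.7%), against 4.57% in the first 2 kb of Npm3 and 5.65% from 2 kb after the listed start to the end of H3f3b. After the gene, bins of 43.9%, 54.2% and 40.3% lay 10 to 13 kb from the start of Npm3 and bins of 51.5% to 62.8% lay 17 to 21 kb from the listed start of H3f3b. H2afx had 1.84% in its first 2 kb and 47.2% (40.9–53.6%) in the 5 kb past its end.

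**Figure D5:**
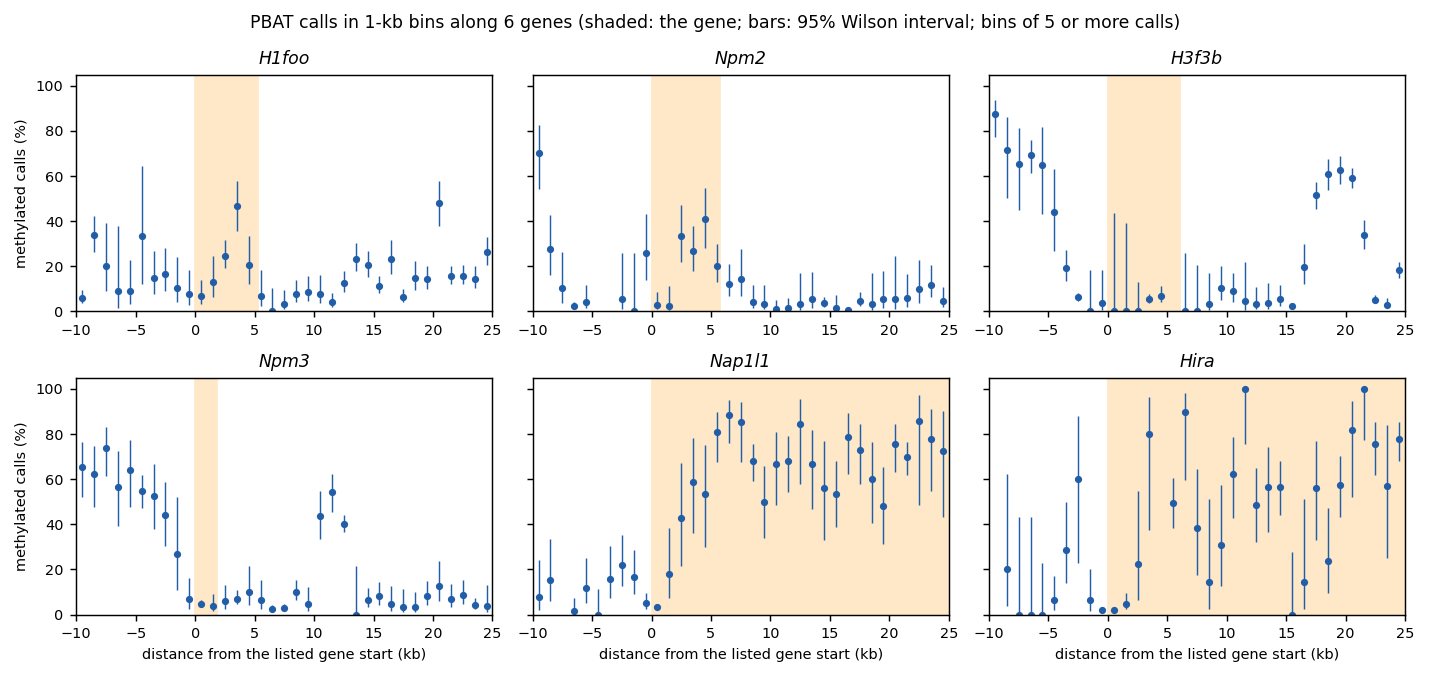
Share of PBAT calls that were methylated (vertical axis, percent) in 1-kb bins by distance from the listed gene start (horizontal axis, kb) for 6 genes, with 95% Wilson intervals and the gene shaded. Nap1l1 and Hira carry methylation inside the gene, H1foo and Npm2 a smaller rise in their later part, and Npm3 and H3f3b methylated stretches on both sides of a low gene.

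The time course of body methylation could be read for 4 genes with at least 3 RRBS positions in all 6 libraries, and Hira was the 1 of them in which both 60–65 µm libraries were at least 10 points above both 40–45 µm libraries, as in 39.1% of 11256 bodies measured. Its values were 4.46% and 6.39% at 40–45 µm, 36.9% and 34.1% at 50–55 µm, and 58.9% and 76.9% at 60–65 µm, and the classes did not overlap, although the libraries did not cover the same positions. H3f3a had 0.853% and 2.51% at 40–45 µm and 0 and 0.144% at 60–65 µm, but on 11 or 12 positions of a body that PBAT, over 35 positions, gave as 24.9%, so that RRBS did not show the state of the body as a whole. H3f3b had 0.421% and 0.0779%, then 0.629% and 0.184%, in a body that as listed takes in its RefSeq promoter, and H2afx had 0.729% and 1.71%, then 0.951% and 2.57%. With 2 libraries per class no test was made. The Hira libraries had 4 to 7 positions, and Hira could not be counted as a gain with a minimum of 5 positions or 10 reads, or at positions shared by all 6 libraries.

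The Hira value rests on 7 CpG cytosines at 4 places, 5 of them in exons and 2 in introns, and an overlapping gene model, Gm28539, covers part of the locus. The cytosine 39.4 kb after the start had 6 of 123 and 24 of 174 calls methylated at 40–45 µm (4.88% and 13.8%), 22 of 53 and 4 of 28 at 50–55 µm (41.5% and 14.3%), and 43 of 55 and 37 of 47 at 60–65 µm (78.2% and 78.7%). The cytosine 39.6 kb after the start went from 0.794% and 2.94% through 30.8% and 15.4% to 50.0% and 69.0%. The pair 22.4 kb after the start had 0 of 16 and 0 of 14 calls methylated at 40–45 µm, 19 of 28 in 50–55 A with no value in 50–55 B, and 13 of 18 and 8 of 10 at 60–65 µm. The 3 positions at 72.2 kb together went from 8.47% and 9.46% through 16.7% and 47.0% to 46.7% and 66.7%, on 15 and 9 calls at 60–65 µm, and 1 of the 3 had no methylated RRBS call at 60–65 µm, where PBAT had 2 of 2 calls methylated. In 50–55 B, 1 of these positions had 22 of 22 calls methylated and its other Hira positions between 0 and 40.9%, so that the middle class rests on which positions each library covered. As places, all 4 were higher in both 60–65 µm libraries than in both 40–45 µm libraries.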

How the data were processed

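RNA-seq was analysed in 8 libraries of growing oocytes and 1 GV column, RRBS in 6 libraries and PBAT in 1. Per the submitters' processing notes, reads were trimmed with Trim Galore (0.2.8 and 0.3.5) and aligned to GRCm38 with TopHat2 2.0.9 (by the study's methods with option -g 1, which keeps 1 alignment per read) or, for bisulphite reads, Bismark (0.10.0 and 0.14.0). The deposited expression table holds RPKM per gene made by the authors, from strand-specific libraries. The study's methods name SeqMonk for RNA-seq analysis and Cufflinks for transcript levels, without saying which made this table or with which strand setting. The deposited methylation files hold counts of methylated and unmethylated calls per cytosine and, beside them, the percent methylated, as the authors' caller wrote them.

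Groups came from the labels. RPKM were scaled by trimmed means (30% by ratio and 5% by level removed at each end), and log2(scaled RPKM + 0.1) was fitted with limma 3.58.1 (R 4.3.3, variance trend, 1 mean per class) in 10518 genes with at least 0.5 RPKM in 2 of 8 libraries. Tests were two-sided with Benjamini-Hochberg adjustment over all of these genes and a threshold of 0.05, and fold changes are on the log2(value + 0.1) scale, which understates those of low genes. Nothing states that libraries A and B came from separate animals, so that p-values measure the spread between these libraries, which may be technical. Whole reads could be recovered from the RPKM steps (99.9% of tested genes whole within 0.05 reads), and edgeR 4.0.16 on these reads, added after seeing the data, called 2452, 950, 0 and 6626 genes in the 3 steps and over the whole of growth. In simulated data for the whole of growth (10518 genes), limma called 78 of 108 genes changed by 0.5 on the log2 scale (72.2%). It also called 92 of 92 genes changed by 1 (100.0%) and 12 unchanged genes.

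Methylation was averaged over cytosines with at least 5 reads, with at least 5 positions per region for PBAT and 3 for RRBS. RRBS libraries held 29942043 to 57215134 calls and PBAT 98148116, with a median of 2 per position. Near-identical copies were sought with blastn 2.17.0 (95% identity over 200 bases). Other scripts used Python 3.11.15, numpy 2.4.6, pandas 2.3.3 and scipy 1.17.1.

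The 10 genes and the lists of related genes and markers were chosen with earlier results of these data known. All 10 are described, and of each list the genes with the largest called change over growth (up to 4) were named, every linker histone in addition, and for a gene whose class means spanned 1 on the log2 scale the 2 genes of highest correlation. Esr2, Pecam1, Foxl2 and Cdh5 were named after their values were seen. Alternatives were other pseudocounts, filters and scalings, a replicate block, leaving out each library, and other read minimums and windows.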

Additional observations from a re-analysis of the deposited data

How the results depend on the processing

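No called change turned its direction, but of the comparisons of the 10 genes that were not called, 10 had a log2 change of either sign across alternatives and 19 kept their sign, the former including H2afx over growth (-0.19 to 0.22), H2afz in the first step (-0.24 to 0.12) and Nap1l1 in the last (-0.19 to 0.24). Over growth, H1foo, H1f0 and Npm3 were called under every RNA alternative run (highest adjusted p 0.0424, 0.0112 and 0.00179 with limma or edgeR), whereas H3f3a and Nap1l1 each lost the call in 7 of 18. In the first step the genes called higher and lower among the 10 numbered 1 and 0 without a filter on low values and 0 and 0 with only the 2 classes compared, and 1 was higher with RPKM as deposited. All genes called in that step numbered 1533 with at least 2 RPKM required and 1115 with only the 2 classes compared. In the second step 0 of the 10 were called lower with a pseudocount of 1, with no filter or with at least 2 RPKM, and all genes called numbered 520 with no filter and 512 with at least 2 RPKM. In the last step a pseudocount of 1 gave 27 genes. Over growth the 10 had 2 lower calls with no filter and 2 with only the 2 classes compared. Leaving out each library gave 846 to 2897 genes called in the first step (0 to 1 of the 10 higher, 0 to 1 lower), 0 to 1604 in the second (0 to 1 lower) and 4833 to 6661 over growth (2 to 3 higher, 2 to 4 lower). Libraries of the same letter deviated together among the 3 smaller classes (correlations 0.60, 0.59 and 0.67) and not between these and 60–65 µm (-0.23, -0.03 and 0.11), so that the letters were not taken as a pairing of all classes. With them as a replicate block 3349, 1882, 246 and 7316 genes were called in the 3 steps and over growth, with Npm2 higher in the first step (adjusted p 0.0310) and H3f3b lower over growth (adjusted p 0.0436). PBAT bodies at 25% or more numbered 2 at 10 reads or more, and the RRBS gain in the Hira body was not counted (0 genes) at 10 reads or more, at positions shared by all 6 libraries, or with at least 5 positions, a choice made after seeing the data. The cause of these shifts was not tested. Of the values of single genes, 946 alternatives stayed, 47 moved by more than the replicate spread, 8 gained and 45 lost a call. RNA classes have 2 libraries each and PBAT 1, and CpG-poor starts (H1foo, Npm2, H3f3b) rest on few calls.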
